A study of Mus musculus with 56 samples.

Results

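Transcripts of 10 genes of the spermatogonial stem cell pool and of spermatogonial differentiation were followed in the mouse male reproductive tract: Gfra1, Ret, Zbtb16, Nanos2, Nanos3, Kit, Stra8, Dmrt1, Sall4 and Sohlh1. They were chosen by name, with earlier results of these data known, and each of the 10 symbols matched 1 row of the 53379 genes in the count table. Interest lay mainly in the testis of young and aged mice, with the 6 duct regions downstream of it for comparison.

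RNA-seq had been made from 7 regions, the testis, the vas deferens, the efferent ductules and 4 parts of the epididymis (initial segment, caput, corpus, cauda), of untreated C57BL/6 males for which the labels name no mutation or transgene, with 4 libraries of mice aged 3 months and 4 of mice aged 21 months for each region. The whole tissue was sequenced with no sort for germ cells, so that spermatogonia gave only part of the RNA of a testis library. The 56 libraries held 11125279 to 20561967 counts in genes, with 16915370 to 19684956 in the 8 testis libraries. Levels are given as CPM, a gene's counts brought to 1 common library total, with the 56 libraries scaled by the trimmed mean of M-values.

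Spermatogonia sit at the base of the seminiferous tubule, where a small pool renews itself and releases cells that commit to differentiation, enter meiosis and become sperm. GDNF from Sertoli and peritubular cells binds GFRA1, which signals through the receptor tyrosine kinase RET, and keeps the stem cells; ZBTB16 (PLZF), NANOS2, NANOS3 and SALL4 act in the undifferentiated cells. Retinoic acid starts differentiation, with SOHLH1 and the receptor tyrosine kinase KIT in the committed cells, STRA8 ahead of meiosis, and DMRT1 in spermatogonia and Sertoli cells. Several of these genes are also used elsewhere, GFRA1 and RET in enteric neurons and kidney, KIT in mast cells, melanocytes, Leydig cells and interstitial cells of smooth muscle, and ZBTB16 in innate-like lymphocytes and muscle.

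Promoter and miRNA sequences are shown as examples, with no test of the letters against the levels, for Sohlh1 and Stra8, whose transcripts were all but limited to the testis below, and Nanos3, which was not. RefSeq promoter entries on GRCm38.p6 were matched for 6 of the 10 members, Gfra1, Nanos2, Nanos3, Kit (with 2 start sites), Stra8 and Sohlh1, and the 250 bases before each start were read. Searched on both strands were CACGTG (the E-box core bound by basic helix-loop-helix factors), AGGTCA (the core bound by retinoic acid receptors and other nuclear receptors), GGGCGG (the GC box) and ACAATGT (a core bound by DMRT proteins). Among 32851 promoter windows of this length, 6.02% held CACGTG, 14.02% AGGTCA, 32.7% GGGCGG and 2.56% ACAATGT. The window before Sohlh1, chr2:25847249-25847498 on the minus strand, held CACGTG 3 times, 231, 211 and 192 bases upstream, and 20 of the 32851 windows (0.0609%) held it that often. GGGCGG stood 162, 128 and 19 bases upstream of Sohlh1, and an AGGTCA 215 bases upstream shares letters with the E-box at 211. In the Sohlh1 and Nanos3 lines the capitals mark every match to the motifs searched. The next lines, 30 bases each of the Stra8 window, chr6:34920742-34920771 and chr6:34920898-34920927 on the plus strand, hold its AGGTCA matches, 194 and 38 bases upstream, in capitals; 1.36% of windows held AGGTCA 2 or more times. Stra8 also had ACAATGT 145 bases upstream, within a window that is annotated as exon over all of its 250 bases. The Nanos3 window, chr8:84176553-84176802 on the minus strand, held 1 match, GGGCGG 216 bases upstream. Kit had 1 GGGCGG, and no match to these letters was present in the Gfra1 and Nanos2 windows.
Sohlh1: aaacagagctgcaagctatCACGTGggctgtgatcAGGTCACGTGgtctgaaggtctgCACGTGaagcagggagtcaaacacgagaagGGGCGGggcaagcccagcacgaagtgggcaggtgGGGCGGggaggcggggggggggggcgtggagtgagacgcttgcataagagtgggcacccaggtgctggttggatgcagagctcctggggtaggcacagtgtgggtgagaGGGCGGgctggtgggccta
Stra8-194: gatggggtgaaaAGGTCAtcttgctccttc
Stra8-38: gcctggggtaccAGGTCAgttttttacctg
Nanos3: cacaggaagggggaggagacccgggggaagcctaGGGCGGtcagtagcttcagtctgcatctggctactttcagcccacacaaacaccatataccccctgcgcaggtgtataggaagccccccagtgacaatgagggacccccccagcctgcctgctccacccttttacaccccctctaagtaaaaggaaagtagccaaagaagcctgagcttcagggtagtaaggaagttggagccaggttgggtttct

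The genes of miR-181c and miR-181d lie on the same strand upstream of the Nanos3 start used for this window, in an intron of a longer annotated transcript of Nanos3. Their mature 5p sequences follow, from RefSeq on GRCm38.p6 (chr8:84178924-84178945 and chr8:84178759-84178781), with the seed, bases 2 to 8, in capitals, which the pair share. These primary miRNA genes were counted as separate features.
miR-181c-5p: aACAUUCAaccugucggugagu
miR-181d-5p: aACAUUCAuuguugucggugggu

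The label testis was checked against marker genes. In the 3-month testis 16 spermatid marker genes summed to 12399 to 14772 CPM per library, the 16 genes of meiotic spermatocytes to 3184 to 3352 CPM, 20 genes of differentiating spermatogonia to 2108 to 2173 CPM and 20 genes of undifferentiated spermatogonia to 166 to 181 CPM, with Taf4b, a transcription cofactor of germ cells, at the head of the last. At 21 months the same sums were 13843 to 14954, 3164 to 3228, 2157 to 2261 and 172 to 181 CPM. Duct epithelium genes summed to 33.9 to 41.1 CPM at 3 months and 34.7 to 37.5 CPM at 21 months. Elsewhere, 2 aged efferent ductule libraries, replicates 1 and 4, stood apart in several members below, and the noncoding RNA Gm42418 took 49.7% of the counts of 1 young caput library, replicate 2.

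Per kilobase of exon, the 3-month testis carried most RNA of the genes of differentiation. Dmrt1 led with 8.47 ± 1.49 CPM per kb (SD, n = 4), followed by Stra8 with 5.18 ± 0.954, Kit with 3.89 ± 0.03896 and Sohlh1 with 2.44 ± 0.404 CPM per kb. Zbtb16 came next with 1.91 ± 0.0784 and Sall4 with 1.06 ± 0.184 CPM per kb. The stem cell receptors were lower, Gfra1 at 0.656 ± 0.0211 and Ret at 0.319 ± 0.0689 CPM per kb, with Nanos3 at 0.652 ± 0.129 between them; the libraries of Gfra1 and Nanos3 overlapped, and those of the other neighbours in the order did not. Nanos2, an RNA-binding protein of the stem cells, closed the order at 0.0359 ± 0.0288 CPM per kb, from 4 counts in 4 libraries. Dmrt1 is also transcribed in Sertoli cells and Kit in Leydig cells, so the levels do not belong to spermatogonia alone, and in bulk samples fewer cells of a type and less RNA per cell cannot be told apart. A shortened Kit transcript is made in spermatids, and gene-level counts do not separate it from the full one.

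**Figure D1:**
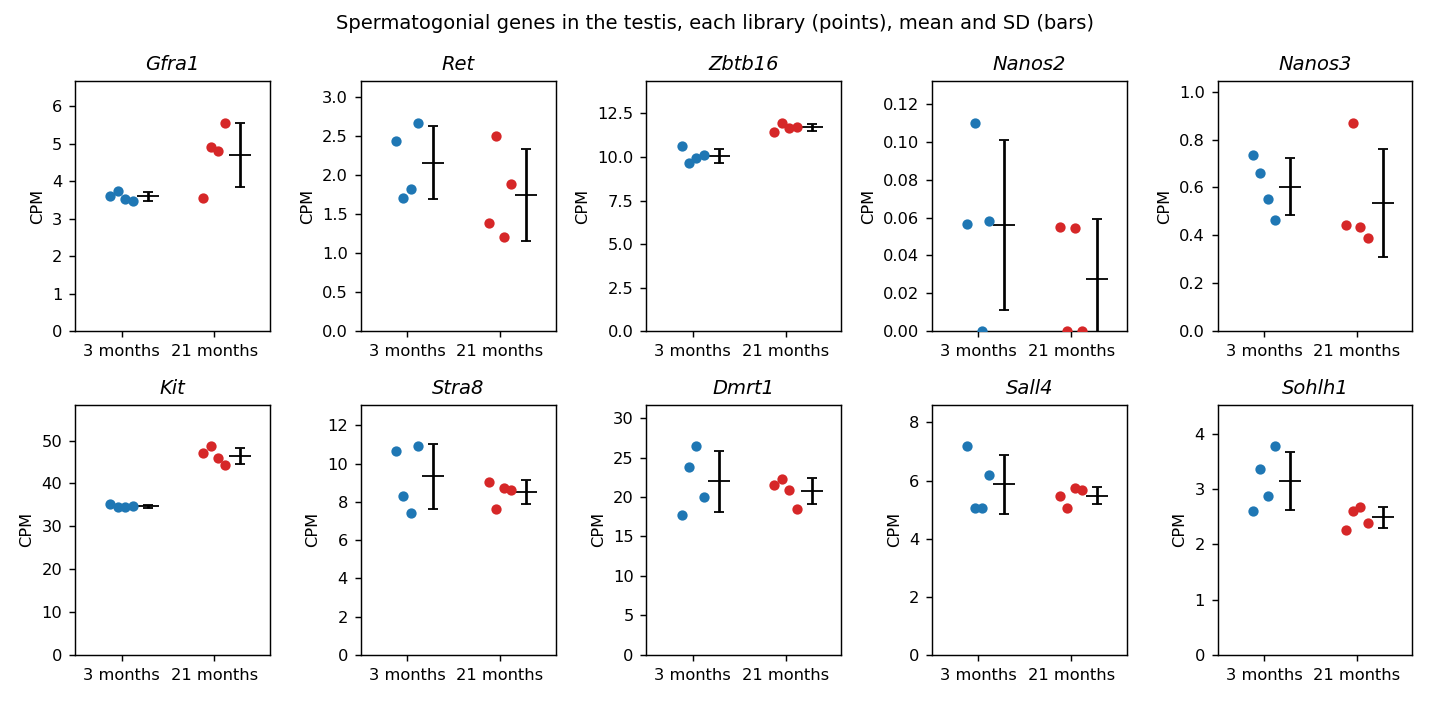
Level of each member in the testis, in CPM on an axis of its own per panel, by age in months; points are the 4 libraries of each age and bars their mean and SD. Kit and Zbtb16 were the members whose libraries of the 2 ages did not overlap, Kit at 34.5 to 35.2 CPM at 3 months and 44.3 to 48.6 CPM at 21 months.

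The receptors of GDNF were compared between the ages first. Gfra1 (ENSMUSG00000025089, chr19:58235604-58455909, minus strand, on GRCm38 as are all gene positions here) encodes the GDNF-binding co-receptor and measured 3.61, 3.74, 3.53 and 3.48 CPM in replicates 1 to 4 at 3 months and 3.54, 4.89, 4.804 and 5.55 CPM at 21 months. Of the aged libraries 3 lay above the young range and 1 inside it, and the difference did not pass the test (log2 fold change 0.37, SE 0.154, adjusted p = 0.382, edgeR's quasi-likelihood test with Benjamini-Hochberg adjustment over 30031 genes). An antisense gene, Gm16277, shares 416 bases of exon with Gfra1 and measured 3.42 to 5.898 CPM in the 3-month testis and 3.499 to 4.79 CPM at 21 months; the kit marks strand, but the strand setting of the counting is not given in the sources used here. Ret (ENSMUSG00000030110, chr6:118151745-118197718, minus strand), the kinase that GFRA1 engages, measured 2.43, 1.71, 1.82 and 2.67 CPM at 3 months and 1.38, 2.502, 1.201 and 1.89 CPM at 21 months. The ages overlapped for Ret (log2 fold change -0.32, SE 0.237, adjusted p = 0.694). Their ligand Gdnf stood at 1.07 to 1.97 CPM at 3 months and 1.33 to 1.96 CPM at 21 months (log2 fold change 0.16, adjusted p = 0.881).

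Among the genes of undifferentiated spermatogonia no member passed the test. Zbtb16 (ENSMUSG00000066687, chr9:48654297-48836222, minus strand), a zinc finger repressor needed for self-renewal, measured 10.6, 9.63, 9.92 and 10.1 CPM at 3 months and 11.4, 11.96, 11.7 and 11.7 CPM at 21 months. All 4 aged libraries lay above all 4 young ones by a small margin, which missed the threshold (log2 fold change 0.20, SE 0.0957, adjusted p = 0.468). Over all genes tested, 3.08% had every aged library above every young one. Sall4 (ENSMUSG00000027547, chr2:168748332-168767943, minus strand), a zinc finger partner of ZBTB16, measured 7.17, 5.06, 5.07 and 6.21 CPM and then 5.47, 5.06, 5.73 and 5.67 CPM, and the ages overlapped (log2 fold change -0.12, SE 0.139, adjusted p = 0.845). Its fitted sign turned positive, at 9.16e-05 on the log2 scale, without young replicate 1, its highest library. Nanos3 (ENSMUSG00000056155, chr8:84173731-84185217, minus strand), a translational repressor of germ cells, was near the detection limit in the testis with 13, 12, 10 and 8 counts at 3 months and 8, 16, 8 and 7 counts at 21 months, and the ages overlapped (log2 fold change -0.18, SE 0.375, adjusted p = 0.918). Nanos2 (ENSMUSG00000051965, chr7:18987400-18988962, plus strand) had 1, 2, 0 and 1 counts at 3 months and 1, 0, 1 and 0 counts at 21 months, too few to be tested; at these depths an age difference was not detectable. An antisense gene, Gm45058, covers 766 bases of Nanos2.

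Kit was the member that rose with age. Kit (ENSMUSG00000005672, chr5:75574916-75656722, plus strand), the receptor of KIT ligand that marks differentiating spermatogonia, measured 35.2, 34.5, 34.5 and 34.6 CPM at 3 months, 34.7 ± 0.347 (SD, n = 4), and 47.03, 48.6, 45.8 and 44.3 CPM at 21 months, 46.4 ± 1.85 (SD, n = 4). The 4 aged libraries all exceeded the 4 young ones, and the young libraries were within 1 CPM of each other. The fold was 1.32 (log2 fold change 0.41, SE 0.0648, adjusted p = 0.00198, 95% interval of the log2 fold change 0.27 to 0.54). It was the 1 call among the 9 members tested, where 0.563% of all genes passed in either direction and 0.353% rose. The call held on leaving out each testis library in turn (adjusted p 0.003303 to 0.0171) and on scaling each library to the summed counts of 20 Sertoli cell genes (log2 fold change 0.38, adjusted p = 0.0176). It was lost in a fit of all 56 libraries with a shared spread, at the same log2 fold change of 0.41 (adjusted p = 1). The change was also below the 1.5-fold that the study, which used DESeq2, asked of an age-related gene beside a p under 0.05. With these cut-offs put on edgeR's unadjusted p-values 0 members rose, against 1.42% of all genes.

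Other cell types that use Kit were set beside it. Genes of Leydig cells summed to 457 to 600.3 CPM at 3 months and 472 to 645 CPM at 21 months (9 of 9 detected), and genes of differentiating spermatogonia to 2108 to 2173 and 2157 to 2261 CPM (20 of 20 detected). Melanocyte genes summed to 21.5 to 23.9 and 19.4 to 24.9 CPM, led by Pmel. Mast cell genes summed to 39.4 to 49.1 and 39.7 to 46.3 CPM, led by the histidine decarboxylase gene Hdc, and 6 of the 11 were at 0 at each age. Of the defining mast cell proteases, Mcpt4 was at 0 counts in all 8 testis libraries and Cpa3 stood at 0.406 to 0.826 CPM at 3 months and 0.163 to 0.608 CPM at 21 months. The part of Leydig cells in the higher Kit level was not tested.

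The remaining differentiation genes did not pass the test with age. Sohlh1 (ENSMUSG00000059625, chr2:25842995-25847248, minus strand), a helix-loop-helix factor of committed spermatogonia, measured 2.598, 3.36, 2.87 and 3.77 CPM at 3 months and 2.27, 2.61, 2.68 and 2.39 CPM at 21 months. Of the aged Sohlh1 libraries 2 lay below the young range and 2 at its low end (log2 fold change -0.35, SE 0.173, adjusted p = 0.486). Stra8 (ENSMUSG00000029848, chr6:34920163-34939344, plus strand), induced by retinoic acid ahead of meiosis, measured 10.7, 8.31, 7.44 and 10.9 CPM and then 9.06, 7.61, 8.74 and 8.61 CPM, with the aged libraries within the young range (log2 fold change -0.15, SE 0.128, adjusted p = 0.749). Dmrt1 (ENSMUSG00000024837, chr19:25505618-25604329, plus strand), a regulator of the choice between mitosis and meiosis, measured 17.7, 23.8, 26.4 and 20.01 CPM and then 21.6, 22.2, 20.9 and 18.5 CPM, again within the young range (log2 fold change -0.09, SE 0.0991, adjusted p = 0.807). Its fitted sign turned positive, at 0.000542 on the log2 scale, without young replicate 3. Over the 9 members tested the median log2 fold change was -0.12, beside -0.01 over all genes. At an unadjusted p under 0.05 there were 3 members, Gfra1, Zbtb16 and Kit, against 10.4% of all genes, and DESeq2 called Kit alone, with no adjusted p for 4 of the 9.

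**Figure D2:**
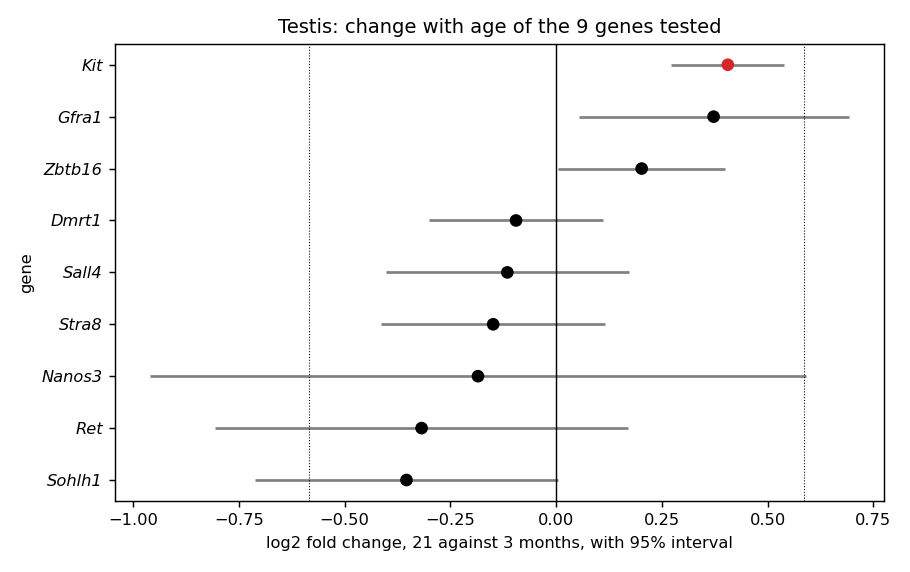
Fitted log2 fold change of the 9 tested members in the testis, 21 against 3 months, with grey bars for the 95% interval; the red point passed an adjusted p of 0.05 and the dotted lines stand at 1.5-fold. Kit, at 0.41, was the member past the test, and the other 8 ran from -0.35 for Sohlh1 to 0.37 for Gfra1.

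In the wider gene lists around the members no gene was called with age in the testis. By edgeR 0 of 20 genes of undifferentiated spermatogonia passed (median log2 fold change -0.01), with Tspan8 (-0.68) and Eomes (0.76) at an unadjusted p under 0.05 and 0 by DESeq2. Of the differentiating spermatogonia list 0 of 20 passed (median -0.04), with 2 at an unadjusted p under 0.05, Ccnd2 (-0.35) and Rhox13 (-0.61), and 0 by DESeq2. The GDNF family list had 0 of 8 (1 unadjusted, Ncam1 at 0.18) and the KIT ligand pathway 0 of 11 (2 unadjusted, Kitl at 0.18 and Sos1 at 0.15), with 0 by DESeq2 in both. Kitl, the ligand of KIT made by Sertoli cells, stood at 24.1 to 27.6 CPM at 3 months and 26.6 to 31.7 CPM at 21 months. Retinoic acid genes gave 0 of 18 by edgeR and by DESeq2, with Aldh1a1, Aldh1a3, Rara and Cyp26b1 at an unadjusted p under 0.05.

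Lists of later germ cells and of somatic cells were counted in the same way. Meiotic spermatocyte genes gave 0 of 16 by edgeR (3 unadjusted, Smc1b, Hormad1 and Pgk2) and 1 by DESeq2, Pgk2. Spermatid genes gave 0 of 16 (2 unadjusted, Tssk1 and Oaz3) and Sertoli cell genes 0 of 20 (3 unadjusted, Sox9, Wt1 and Cst9), with 0 by DESeq2 in both. Leydig cell genes gave 3 of 9: Star (1.02), which carries cholesterol into mitochondria, and Hsd3b6 (0.70) rose, and Cyp11a1 (-0.60), the side-chain cleavage enzyme, fell. Star measured 26.8 to 38.6 CPM at 3 months and 60.9 to 80.8 CPM at 21 months. At an unadjusted p under 0.05 there were 6 of the 9, with Cyp17a1 (-0.36), Insl3 (-0.34) and Lhcgr (-0.35) added. Myh11 (-0.55), a smooth muscle myosin, fell among 8 genes of peritubular myoid cells (median -0.30, 1 above 0), with Acta2 (-0.25), Tagln (-0.36), Cnn1 (-0.36) and Myocd (-0.51) also at an unadjusted p under 0.05. Cd68 (1.18) rose among 9 genes of macrophages, where DESeq2 called C1qc in its place and Cd163 (0.46), C1qa (0.30) and C1qc (0.47) had an unadjusted p under 0.05. By edgeR and by DESeq2 none passed of 4 tested mast cell genes, 4 melanocyte genes, 9 of glia and neurons, 10 of T cells, 6 of endothelium and 10 of duct epithelium, with 3 genes among them at an unadjusted p under 0.05, Prph, Cd4 and Epcam.

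Which members belong to the testis was asked next, against the mean of the other 6 regions. At 3 months 4 of the 10 members tested were higher in the testis (past the test with at least 4 times the mean CPM) and 3 were lower, where 28.8% and 17.9% of all genes were. The ratio is that of mean CPM scaled over the 28 libraries of the age, while the log2 fold change averages the regions on the log scale, so the values of a gene can differ. The higher ones were Stra8 (log2 fold change 9.06, mean CPM 522 times higher), Dmrt1 (8.87, 366 times), Sall4 (8.08, 347 times) and Sohlh1 (6.82, 69.2 times). Stra8 and Sall4 had 7 counts each over the 24 duct libraries, so they passed the 10-count filter only through the testis. The sizes of these folds rest on few duct counts. Lower in the testis were Gfra1 (-3.68, 37.5 times lower), Ret (-3.22, 14.9 times) and Zbtb16 (-2.18, 5.91 times). All 7 had adjusted p-values of 3.25e-12 or lower. Kit (-0.17, adjusted p = 0.0778) was not called, and its sign turned with DESeq2 size factors (0.14), which moved the median of all genes from 0.23 to 0.53. Nanos3 (0.19, adjusted p = 0.6896) was not called either, and Nanos2 passed the test (2.14, adjusted p = 0.0125) but not the fold, with 3.06 times the CPM from 4 counts in the testis, too few to be read as a level. Taken 1 region at a time with the same test and 4-fold limit, the 4 higher members passed against all 6 and 0 of the 3 lower ones did (22.2% of all genes were higher and 6.87% lower by this rule). The testis libraries of Gfra1, Ret and Zbtb16 nonetheless all lay below every duct library of the age, as for 16.3% of all genes, by less than 4-fold in the mean against the region nearest in level. The 7 regions had been taken from the same mice, 4 of each age, so libraries of different regions are not independent. A fit with the replicate number as a block left the 7 calls against the mean of the other regions as they were. The numbers are not known to mark a mouse, so this fit cannot be taken to account for the shared mice.

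At 21 months the same 4 members were higher and the same 3 lower, of 9 tested (27.6% and 19.4% of all genes). The log2 fold changes were 9.87 for Dmrt1, 8.41 for Stra8, 7.34 for Sohlh1 and 6.89 for Sall4, and -3.10 for Gfra1, -4.20 for Ret and -2.08 for Zbtb16. Stra8, Dmrt1 and Sohlh1 had 7, 6 and 5 duct counts at this age, so they passed the filter only through the testis. With DESeq2 size factors the mean CPM of Zbtb16 was no longer 4-fold lower, which leaves 2 lower members, and DESeq2's test with the CPM scaled as above kept all 3. Kit (0.23, adjusted p = 0.0716) and Nanos3 (0.52, adjusted p = 0.244) were not called by edgeR; DESeq2 gave both an adjusted p under 0.05. Ret passed as lower than all 6 with the 4-fold limit, 1 region at a time (7.49% of all genes). The testis libraries of Ret and Zbtb16 lay below every duct library at this age too (14.8% of all genes), while those of Gfra1 overlapped the vas deferens and lay above the cauda. The age effect in the testis was tested against the mean age effect of the other 6 regions in 1 fit of the 56 libraries, and by edgeR 0 of 10 members passed (all genes 0.0649%), with Gfra1, Ret and Kit at an unadjusted p under 0.05, against 5.54% of all genes. The difference in age effect was 0.56 for Kit (SE 0.151, adjusted p = 0.171), 0.74 for Gfra1 (SE 0.274, adjusted p = 0.607) and -0.82 for Ret (SE 0.366, adjusted p = 0.798). This test does not show a rise of Kit particular to the testis.

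**Figure D3:**
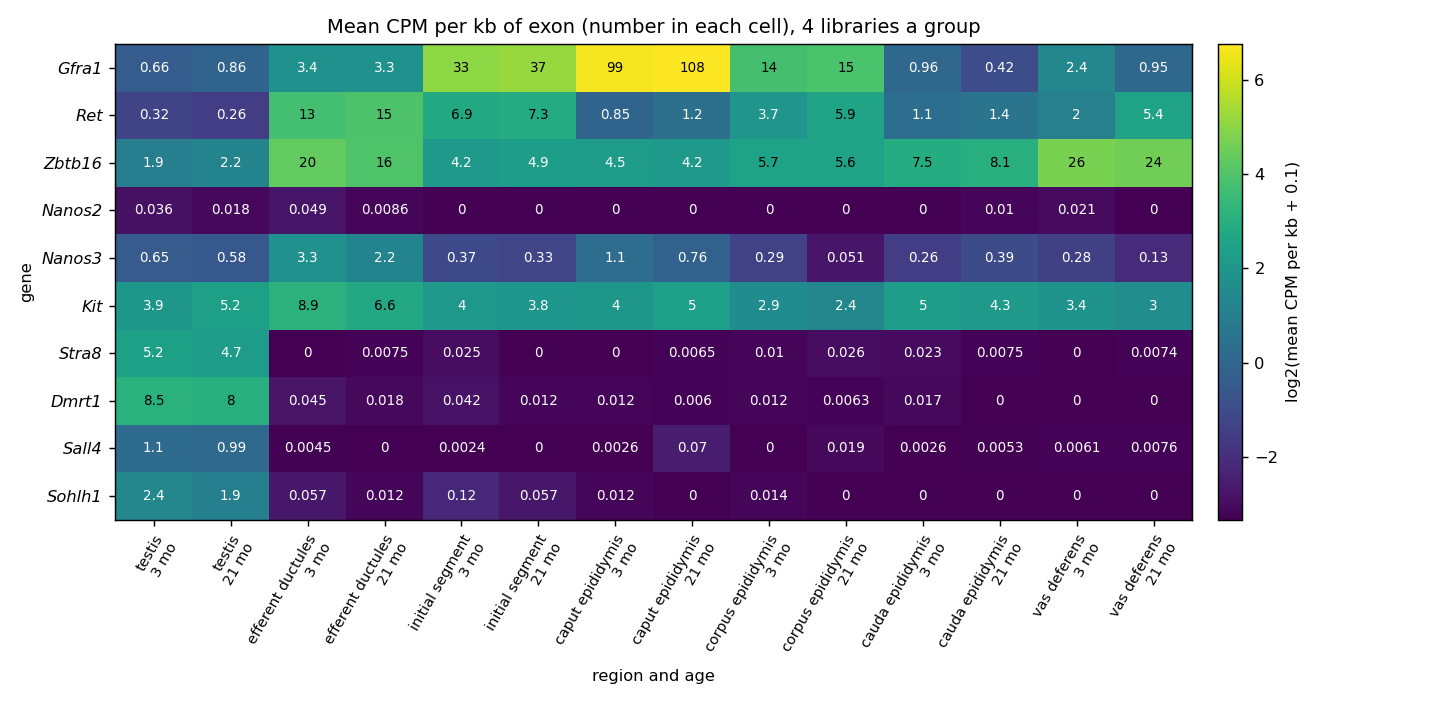
Mean level of the 10 members in the 7 regions at 3 and 21 months, in CPM per kb of exon, printed in each cell and coloured on a log2 scale after adding 0.1. Stra8, Dmrt1, Sall4 and Sohlh1 are near 0 outside the testis columns, while Gfra1 peaks in the caput, Ret and Kit in the efferent ductules and Zbtb16 in the vas deferens and efferent ductules.

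The lists around the members were set against the other 6 regions at 3 months in the same way, with log2 fold changes in brackets, beside 28.8% of all genes higher and 17.9% lower. Of 19 tested genes of undifferentiated spermatogonia 7 were higher in the testis, among them Taf4b (2.69), Pou5f1 (8.15), Lin28a (8.06) and Sox3 (6.01), and 3 were lower: Cdh1 (-8.26), the adhesion molecule of epithelia, Glis3 (-3.92) and Etv5 (-0.75), whose mean CPM was 6.06 times lower. Of 20 genes of differentiating spermatogonia 14 were higher, led by Stk31 (8.16), Tdrd1 (7.19), Dazl (8.77) and Rbm44 (8.08), and 3 were lower, the cyclins Ccnd2 (-3.67) and Ccnd1 (-4.42) and the retinoic acid receptor Rarg (-3.21). In the GDNF family the neurturin co-receptor Gfra2 was higher in the testis (3.82), where Gfra1 was lower, and Ncam1 (-3.21) and Gdf15 (-2.37) were lower. KIT signalling genes gave 1 higher, Pik3cd (2.66), and 6 lower of 11, led by Pik3r1 (-4.58), and retinoic acid genes 3 higher, Rdh11 (3.10), Aldh1a2 (2.73) and Cyp26a1 (2.68), and 6 lower of 18.

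In the ducts the 4 testis members were at or near 0. Over the 24 duct libraries of each age, Stra8 had 7 counts at 3 months and 7 at 21 months, against 663 and 619 in 4 testis libraries, and 18 duct libraries were at 0 at each age. Dmrt1 had 24 and 6 duct counts, and Sohlh1 18 and 5. Sall4 had 7 duct counts at 3 months and 39 at 21 months, the 1 member of the 4 with more at 21 months. A count of 0 in a library allows up to 3 counts, for counting error only, so that these genes cannot be called absent from the ducts.

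Sall4 was called higher in the aged caput, the part of the epididymis where sperm begin to mature. It had 0, 0, 1 and 0 counts in the 4 young caput libraries and 7, 3, 10 and 8 in the aged ones, or 0.433, 0.199, 0.472 and 0.439 CPM. Every aged library was above every young one, as for 8.26% of all genes. The ratio of the pooled levels was 22.9, with an exact 95% counting interval of 3.79 to 938, and the adjusted p was 0.0183. It was the 1 call among 6 members tested there (3.09% of all genes rose), and DESeq2 called it too. Sall4 had 1 count in the young caput and 28 in the aged, so it passed the 10-count filter only through the aged libraries. The test could therefore not have called it lower, and the call is no support beyond these counts. The call was lost without aged replicate 1 (adjusted p = 0.0578) or aged replicate 3 (adjusted p = 0.0595), and edgeR's filterByExpr removed the gene. The aged caput stood below the testis, at a mean of 0.386 against 5.48 CPM. Spermatid genes summed to 164 to 229.6 CPM in the young and 141 to 154 CPM in the aged caput, and differentiating spermatogonia genes to 270.2 to 317 and 245 to 269.8 CPM. By gene, the spermatid list gave 1 higher and 2 lower of 16 (median log2 fold change -0.22) and the differentiating spermatogonia list 2 higher and 3 lower of 17 (median log2 fold change 0.19), beside 3.09% and 5.05% of all genes. Of the somatic lists, smooth muscle genes gave 0 higher and 7 lower of 8 (median -0.60) and T cell genes 5 higher and 1 lower of 11 (median 0.98). Macrophage genes gave 2 higher and 0 lower of 9 (median 0.31) and Sertoli cell genes 1 higher and 4 lower of 16 (median -0.36). The part of all these cells in the Sall4 difference was not tested. Gm14261, which shares 526 bases of exon with Sall4 on the other strand, had 4 counts in the aged caput.

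Gfra1 was a gene of the proximal epididymis. At 3 months it measured 557, 523, 502 and 577 CPM in the caput, 157, 171, 162 and 236 CPM in the initial segment and 77.5, 74.2, 70.05 and 75.4 CPM in the corpus. Then came the efferent ductules with 20.5, 16.3, 19.3 and 17.5 CPM, the vas deferens with 11.8, 12.5, 15.3 and 13.5 CPM and the cauda with 4.66, 4.37, 5.48 and 6.44 CPM. The testis closed the order at 3.59 CPM. No neighbours in this order overlapped, each pair with an exact two-sided permutation p of 0.0286, the smallest that 4 against 4 can give. The order was taken from the same means, so this p adds nothing to the lack of overlap. The aged means were 592 CPM (caput), 201 (initial segment), 80.9 (corpus), 18.2 (efferent ductules), 5.22 (vas deferens), 4.698 (testis) and 2.32 CPM (cauda).

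Ret was placed differently from its co-receptor. It measured 109.9, 87.8, 80.8 and 78.4 CPM in the young efferent ductules, 49.5, 45.99, 46.1 and 44.8 CPM in the initial segment and 36.9, 17.1, 30.5 and 15.8 CPM in the corpus. The vas deferens followed with 14.8, 10.7, 18.2 and 10.5 CPM, the cauda with 7.702, 7.73, 9.16 and 6.09 CPM and the caput, where Gfra1 was highest, with 5.13, 3.66, 10.9 and 3.34 CPM. The corpus and vas deferens (exact p = 0.0857) and the cauda and caput (exact p = 0.229) overlapped, and the other neighbours did not. At 21 months Ret averaged 104 CPM (efferent ductules), 49.7 (initial segment), 39.7 (corpus), 36.8 (vas deferens), 9.32 (cauda) and 8.24 CPM (caput). Across the 14 groups of region and age, Pearson's r between Gfra1 and Ret was 0.21 on log2(CPM + 1), a description over groups that share a tissue between ages. Gdnf, their ligand, was highest in the corpus, at 6.88 to 12.1 CPM at 3 months and 5.69 to 10.4 CPM at 21 months.

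Zbtb16, the stem cell repressor, had its highest levels at the ends of the duct system, away from the testis itself. It measured 127, 142, 156 and 129 CPM in the young vas deferens and 124, 109, 96.6 and 97.5 CPM in the efferent ductules. The other duct regions had means of 39.6 (cauda), 29.98 (corpus), 23.6 (caput) and 22.3 CPM (initial segment), with the testis last at 10.1 CPM. The cauda and corpus (exact p = 0.171), the corpus and caput (p = 0.314) and the caput and initial segment (p = 0.771) overlapped. At 21 months the vas deferens held 161, 151, 97.1 and 94.5 CPM and the efferent ductules 45.7, 115, 121 and 51.7 CPM, the latter with replicates 1 and 4 well below replicates 2 and 3.

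Kit was present in every region, with 3-month means from 26.01 CPM in the corpus to 78.96 CPM in the efferent ductules. The efferent ductules led with 82.99, 86.5, 63.1 and 83.3 CPM at 3 months, and the cauda (44.2 CPM), initial segment (35.6), caput (35.4), testis (34.7), vas deferens (30.3) and corpus (26.01) followed. The cauda and initial segment (exact p = 0.0571), initial segment and caput (p = 0.886), caput and testis (p = 0.914) and vas deferens and corpus (p = 0.0857) overlapped, so that only the first place and the step from testis to vas deferens were clear of the spread between libraries. Mast cell genes, as the list of a cell type that lives on KIT, summed to 136 to 158 CPM in the young efferent ductules and 189.9 to 256 CPM in the young vas deferens, led by Hdc in the former and Gata2 in the latter, and their part in the Kit level was not tested. Nanos3 had its highest level outside the testis too, with 3.41, 2.77, 2.54 and 3.52 CPM in the young efferent ductules against 0.734, 0.6604, 0.551 and 0.464 CPM in the testis. The miRNA genes in its intron, shown above, had 29 (miR-181c) and 24 (miR-181d) counts in the young efferent ductules and 0 and 0 in the young testis. Over the 14 groups Nanos3 and Kit had an r of 0.86.

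**Figure D4:**
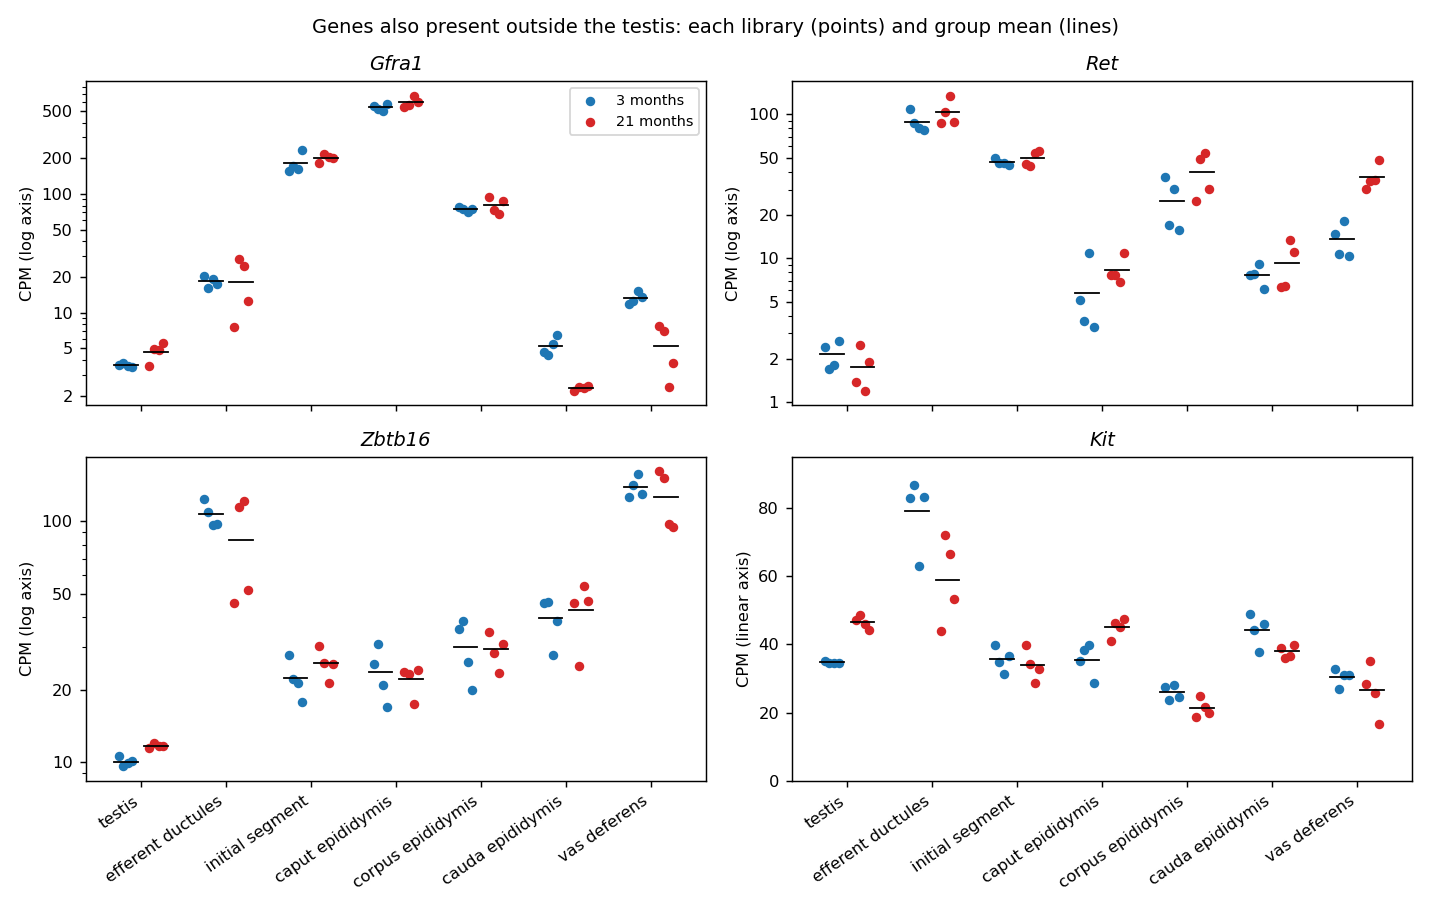
Levels of Gfra1, Ret, Zbtb16 and Kit in CPM by region, with 1 point for each of the 4 libraries per age; the axes of Gfra1, Ret and Zbtb16 are logarithmic and that of Kit is linear from 0. Gfra1 at 3 months runs from 539.6 CPM in the caput to 3.59 CPM in the testis, and in the vas deferens the ages part for Ret and Gfra1.

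With age the vas deferens, the muscular duct that carries sperm from the cauda, gave opposite changes in the GDNF receptors. Ret rose from 14.8, 10.7, 18.2 and 10.5 CPM to 30.2, 34.2, 35.04 and 47.9 CPM (log2 fold change 1.44, SE 0.199, adjusted p = 0.00133). Gfra1 fell from 11.8, 12.5, 15.3 and 13.5 CPM to 7.74, 7.05, 2.35 and 3.73 CPM (log2 fold change -1.36, SE 0.2996, adjusted p = 0.0106). Neither gene's ages overlapped (12.9% of all genes lay wholly higher and 12.1% wholly lower), and both calls held under every alternative run, leaving out each library in turn included. These were 2 calls among 5 members tested, in a region where 11.4% of all genes rose and 8.47% fell, and DESeq2 called the same 2. In the aged libraries replicates 3 and 4 were the lowest for Gfra1 and Zbtb16 and the highest for Ret. By a chi-square on the counts, the closest pair of aged libraries lay further apart than in any other group. Zbtb16 (-0.14, adjusted p = 0.5798), Nanos3 (-1.03, adjusted p = 0.391) and Kit (-0.20, adjusted p = 0.464) were not called. Artn, the ligand artemin of the GDNF family, rose as well (0.93, adjusted p = 0.00467), and Kitl fell from 69.6 to 80.99 CPM to 32.2 to 59.7 CPM (-0.64, adjusted p = 0.0156). Duct epithelium genes summed to 21795 to 24820.2 CPM at 3 months and 11822 to 19079.9 CPM at 21 months, led by Akr1b7, smooth muscle genes to 12921 to 13327 and 13451 to 19973 CPM, T cell genes to 92.4 to 101 and 131 to 184 CPM and genes of glia and neurons to 19.5 to 22.4 and 11.6 to 19.1 CPM, with 1, 0, 1 and 1 genes at 0 in the young libraries. By gene, these lists gave 5 higher and 1 lower of 12 (median log2 fold change 0.46) for duct epithelium, 5 higher and 0 lower of 8 (median log2 fold change 0.39) for smooth muscle and 8 higher and 0 lower of 11 (median log2 fold change 2.20) for T cells. Mast cell genes gave 0 higher and 5 lower of 11 (median log2 fold change -0.81), macrophage genes 3 higher and 0 lower of 9 (median log2 fold change -0.13), endothelial genes 0 higher and 2 lower of 6 (median log2 fold change -0.51) and genes of glia and neurons 0 higher and 0 lower of 8 (median log2 fold change -0.11). Their part in the Ret and Gfra1 differences was not tested.

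Elsewhere in the ducts, Sall4 in the caput aside, no member's age difference was called in the main fits. Large values at few counts were among the uncalled, such as -2.17 for Nanos3 in the corpus, from 16 young and 3 aged counts. In the cauda Gfra1 measured 4.66, 4.37, 5.48 and 6.44 CPM and then 2.198, 2.34, 2.33 and 2.42 CPM, with no overlap (all genes 4.62% lower), and missed the threshold by edgeR (log2 fold change -1.16, SE 0.203, adjusted p = 0.0643) but not by DESeq2 (adjusted p = 0.000449). By edgeR 0 of 5 members passed there, where 0.128% of all genes did, with Gfra1 at an unadjusted p under 0.05, against 10.5% of all genes. Gfra1 was lower there by the study's cut-offs on edgeR's unadjusted p-values, as 4.76% of all genes were. The corpus gave 0 of 5 by edgeR and by DESeq2 (all genes 2.97%), with Ret and Kit at an unadjusted p under 0.05, against 17.3% of all genes. Ret measured 36.9, 17.1, 30.5 and 15.8 CPM and then 24.9, 49.4, 54.4 and 30.1 CPM there (log2 fold change 0.65, SE 0.255, adjusted p = 0.195), and with the replicate number as a block its adjusted p was 0.0489. By the study's cut-offs on edgeR's unadjusted p-values Ret was higher there, as 3.48% of all genes were. The initial segment gave 0 of 6 by both tools (all genes 6.35%), with none at an unadjusted p under 0.05 (all genes 19.1%). Its Gdnf rose from 0.587 to 2.49 CPM to 4.82 to 6.61 CPM (2.19, adjusted p = 0.00233), while Gfra1 there measured 157, 171, 162 and 236 CPM and then 183, 217, 203 and 202 CPM (0.14, adjusted p = 0.551). Other lists moved in the same libraries: spermatid genes gave 0 higher and 9 lower of 16 (median log2 fold change -1.95), meiotic genes 0 higher and 5 lower of 16 (median log2 fold change -1.29), differentiating spermatogonia genes 0 higher and 7 lower of 17 (median log2 fold change -0.45), T cell genes 5 higher and 0 lower of 11 (median log2 fold change 0.86) and macrophage genes 3 higher and 0 lower of 9 (median log2 fold change 0.47) (3.35% of all genes rose and 3.01% fell), and their part in the Gdnf difference was not tested. In the caput Kit measured 34.99, 38.2, 39.8 and 28.5 CPM and then 41.1, 46.2, 45.1 and 47.4 CPM, with no overlap (all genes 8.26% higher), and was not called (0.34, adjusted p = 0.0865).

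In the efferent ductules 0 of 6 members passed by edgeR and by DESeq2 (all genes 6.99%), with Kit at an unadjusted p under 0.05 (-0.41, adjusted p = 0.1297), against 25.1% of all genes. Kit measured 82.99, 86.5, 63.1 and 83.3 CPM at 3 months and 43.9, 72.1, 66.4 and 53.4 CPM at 21 months, and Gfra1 20.5, 16.3, 19.3 and 17.5 CPM and then 7.58, 28.2, 24.6 and 12.5 CPM. For both genes aged replicates 1 and 4 were the lowest. Gm42418 took 22.2% and 18.5% of the counts of those libraries, and 4.93% and 14.9% of those of replicates 2 and 3. Kitl fell in this region from 39.9 to 45.2 CPM to 23.7 to 27.3 CPM (-0.68, adjusted p = 0.00638), and the ligand Nrtn (1.23, adjusted p = 0.0226), its relative Gdf15 (1.34, adjusted p = 0.0148) and the co-receptor Gfra4 (0.87, adjusted p = 0.0337) rose. In the same libraries macrophage genes gave 5 higher and 0 lower of 9 (median log2 fold change 0.55) and T cell genes 5 higher and 0 lower of 11 (median 1.605). Mast cell genes gave 2 higher and 0 lower of 9 (median 1.07) and smooth muscle genes 2 higher and 0 lower of 8 (median 0.35). Duct epithelium genes gave 3 higher and 1 lower of 13, with log2 fold changes from -0.73 to 10.66 (median 1.28). DESeq2 called 4 of them, Krt5, Adam28, Lcn8 and Lrp2, and the paper lists Adam28 as a gene of the initial segment. Over all genes 4% rose and 2.98% fell. The part of these cells, or of tissue from neighbouring regions, in the differences of this region was not tested.

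Genes with the pattern most like each widely transcribed member were found by Pearson's r of group means of log2(CPM + 1) over the 14 groups, among 24969 genes. Nearest to Gfra1 were 2310034O05Rik (r = 0.96), Gm16617 (0.94) and Tbc1d9 (0.93), and nearest to Ret were Hid1 (0.96), Dqx1 (0.94) and Dusp14 (0.94). Zbtb16 ran closest to Mitf (0.98), Rgs7bp (0.97) and Cav1 (0.97). The best for Kit were lower, Mapkbp1 (0.90), Aif1l (0.88) and Sh3bgrl2 (0.88). Among the members, Stra8, Dmrt1, Sall4 and Sohlh1 had pairwise r values of 0.98 to 0.9995, which rest on the testis groups standing apart from all others.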

How the data were processed

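Total RNA of 56 libraries (7 regions, 2 ages, 4 libraries each) had been sequenced with a stranded total RNA kit. Per the labels and the study's methods, the authors aligned reads to GRCm38 with HISAT2, and the submitters' processing notes also name cutadapt and HTSeq; the deposited values are raw counts per gene, with no row of unassigned reads. Tool versions, the strand setting and the annotation release are not given in the sources used here. Gene symbols, positions and exon lengths came from the GRCm38 annotation (53274 of 53379 rows had a symbol). Genes with at least 10 counts in total were tested with edgeR 4.0.16 (TMM, quasi-likelihood F-test, R 4.3.3), with Benjamini-Hochberg adjustment over all genes tested and a threshold of 0.05. Each region's ages were fitted on its own 8 libraries, testis against the other regions on the 28 libraries of an age, requiring also a 4-fold difference in mean CPM, and the difference in age effect on all 56. DESeq2 1.42.0, other scalings and filters, a replicate block and leaving out libraries were alternatives; scripts were tested on simulated data. Neighbouring regions in the order of their means were compared with exact permutation tests of log2(CPM + 1), unadjusted.

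The 10 members, the 17 lists and the tests were chosen with earlier results of these data known. All 10 members were named, with the genes past the test in each list (at most 4 per direction), the ligands, list leaders and overlapping genes. The 7 regions came from the same 4 mice per age, so tests across regions treat libraries that share mice as independent. Replicate numbers are not stated to mark one mouse. In their deviations from group means, same-numbered testis and duct libraries of an age correlated at -0.109 to 0.127. Same-numbered young and aged testis libraries, from different mice, correlated at 0.0128 to 0.116. Replicates were separate mice per the design text, and no 2 libraries of a group agreed within sampling noise. Counting intervals cover counting error only.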

Additional observations from a re-analysis of the deposited data

Results flagged for a closer look

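In groups of 4 libraries, a highest or lowest library was compared with the gap to its neighbour as a share of the whole range. Of 67 groups of a member, region and age, 2 passed Dixon's 95% limit for 4 values, and chance alone passes about 1 in 20. Zbtb16 in the aged caput measured 17.4 CPM in replicate 3, below the 23.2 to 24.1 CPM of the other 3 libraries. Kit in the young efferent ductules measured 63.1 CPM in replicate 3, below the 83.0 to 86.5 CPM of the other 3. In that young efferent ductule library the spermatid genes summed to 229 CPM, against 64.5 to 71.2 CPM in the other 3 young libraries of the region.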

How the results depend on the processing

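On leaving out 1 library, or all libraries of 1 replicate number, 9 values of the counts and the orders along the tract moved by over 1.5 times. Under the other settings 19 did and 160 did not. With the study's cut-offs put on the edgeR fit (unadjusted p under 0.05 and 1.5-fold) 0 members rose in the testis and 815 genes were called in place of 169. All 56 libraries in 1 fit gave 0 members and 10 genes there. Calls over all genes in the testis were 486 with no filter and 276 with the replicate block, and 59 to 192 on leaving out 1 library, with 94 without young replicate 2 and 66, 59 and 73 without aged replicates 1, 2 and 3. The replicate block left Kit called (adjusted p = 0.00239), added Ret in the corpus (1 call) and changed no other member's call; the numbers are not known to pair mice. In the efferent ductules 1 member, Kit, fell with library size only and with all 56 libraries, and 2 were counted as higher without aged replicates 1 and 4, which were left out with their low values known, so that this count is no test. In the caput 0 rose with filterByExpr and 0 to 2 on leaving out 1 library, with Sall4 and Ret without young replicate 3 and none without aged replicate 1 or 3. The initial segment gave 0 to 1, with Gfra1 without young replicate 4. In the corpus 1 member, Ret, rose by the study's cut-offs on the edgeR fit and with no filter (adjusted p = 9.74e-05). In the cauda 1 member, Gfra1, fell by those cut-offs, with no filter (adjusted p = 0.0466), with DESeq2 and with all 56 libraries (adjusted p = 0.00577). Against each other region in turn, 0 members at 3 months and 1 at 21 months passed as lower in the testis by at least 4-fold. With DESeq2 size factors the mean CPM of Zbtb16 at 21 months was no longer 4-fold lower in the testis. The order of Kit along the tract kept 4 to 7 of 7 regions in place, with 4 without young initial segment replicate 1. Signs turned in the testis for Dmrt1 (-0.18 to 0.000542 on leaving out 1 library, highest without young replicate 3) and Sall4 (-0.19 to 9.16e-05, highest without young replicate 1). They also turned for Kit in the testis against the other regions at 3 months (0.14 with DESeq2 size factors and 0.14 with DESeq2). The age effect of Nanos3 in the testis against the other regions ran from -0.13 without all libraries numbered replicate 2 to 1.22 without all numbered replicate 1. The cause was not tested. Scaled by library size only, genes had a median age change of -0.38 (efferent ductules), 0.19 (caput) and -0.17 (corpus) on the log2 scale. The main fits of these regions gave -0.04, -0.01 and -0.01. Depth limits Nanos2 and Nanos3, with at most 16 counts in a testis library, and the Sall4 call in the caput, with at most 10.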
